A study of Mus musculus with 6 samples.

Results

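The genes described here encode potassium, sodium and calcium channels, transient receptor potential (TRP) channels, chloride channels and exchangers of the ClC family and anoctamins, with their accessory subunits. They were chosen by gene symbol alone: Kcn, Scn followed by a digit, Cacn, Trpc, Trpv or Trpm followed by a digit, Clcn, or Ano followed by a digit. Of 18059 genes listed in each library 166 matched, and 58 of these had a mean of 1 CPM or more over the 6 libraries. CPM is a gene's count relative to the size of its library, scaled with TMM factors. A further 108 matched genes lay below that level, and 2 of these, Trpm8 among them, were listed at 0 in all 6 libraries. Trpc4ap, an adaptor of a ubiquitin ligase, is among the 58 through its symbol but is no channel subunit.

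The cells were primary cardiac fibroblasts, cultured from hearts of C57BL/6 mice aged 1 to 2 weeks in medium with 15% serum. They received saline (control, 3 libraries) or PDGF-DD, a dimeric growth factor of the platelet-derived family (3 libraries), for 12 hours, and the labels give the dose as 20 µM, a unit that is doubtful for a growth factor. The labels disagree on genotype: the growth protocol has all cells come from mice with a global knockout of PDGF-D, whereas the genotype field calls the control samples control and the PDGF-DD samples PDGF-D -/-. If the field is right, genotype and treatment cannot be told apart, so groups are named below by sample title. Reads of Pdgfd, 91 to 118 in control and 69 to 82 in PDGF-DD libraries, do not settle this, because counts over a whole gene do not show which exons they came from. Whether the 3 libraries of a group stem from different cultures or mice is not in the labels. The p-values below therefore reflect the spread among libraries alone, which may be technical.

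Ion channels set the membrane potential and the entry of calcium. Potassium channels let potassium leave the cell and hold the potential negative. Fibroblasts do not fire action potentials, but their potassium, TRP and chloride channels act in volume control, in calcium signals and in the response to stretch. Many channels are assembled from pore subunits and accessory subunits that have no pore of their own.

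The libraries held 21221114 to 21371829 estimated counts, and between 0.142% and 0.162% of these fell on the 166 channel genes. Control replicate 1 stood somewhat apart. Its counts varied from those of the other control libraries by 5.11 and 5.7 times the sampling variance (chi-square over degrees of freedom). Other pairs within a group lay at 1.9 to 2.74. All 8 fibroblast markers were above 1 CPM. They summed to 45916 to 47981 CPM in control libraries and 40788 to 41545 CPM in PDGF-DD libraries, with 6 lower and 1 higher. Markers of other cells were also present: none of the lists had a member at 0 in every library. The 10 smooth muscle and pericyte markers summed to 5584 to 5992 CPM in control against 4386 to 4585 CPM with PDGF-DD, most of it from Acta2, with 5 lower and 1 higher. The 10 cardiomyocyte markers summed to 160 to 171 and 116 to 132 CPM, most of it from Tnnt2, and 8 of them had a mean below 1 CPM and 3 were lower. The Schwann cell and neuron list, most of it Tubb3, summed to 177 to 184 and 155 to 167 CPM, the endothelial list to 248 to 265 and 229 to 237 CPM, the macrophage list to 71.8 to 76.9 and 65 to 70.5 CPM and the epicardial list to 124 to 129 and 110 to 112 CPM. In bulk RNA of this kind, fewer cells of a type and less RNA per cell cannot be told apart, and the part of these cells in the results below was not tested.

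Channel genes were more often lower than higher with PDGF-DD. Of the 58 genes 20 were lower and 4 higher by edgeR's quasi-likelihood test at a Benjamini-Hochberg adjusted p under 0.05 over all tested genes. As shares, 34.5% of them were lower and 6.9% higher, beside 18.2% lower and 20.3% higher among the 12357 tested genes of the same minimum level. Without that minimum 17.4% and 19.1% of 13270 genes were lower and higher. The share called in either direction, 41.4%, lay near the 38.6% of all genes of that level (36.5% of all tested genes). Whether the shares differ from the background was not tested. Counts of single classes below rest on few genes and are to be read beside these shares. The 58 genes had a median log2 fold change of -0.16, beside -0.006 for all genes of that level. Their median absolute log2 fold change was 0.23 beside 0.14. The groups of 33 of the 58 genes did not overlap, and neither did those of 47.1% of all tested genes. That share includes genes below 1 CPM, and none was computed at the matched level. A change of at least 0.5 on the log2 scale was called for 12 of the 58 (20.7%), 8 lower and 4 higher, beside 6.71% of all tested genes. The summed markers of all 7 cell type lists, the fibroblast list included, were lower with PDGF-DD too, without overlap between the groups. Single markers fell less uniformly: 1 of 8 endothelial and 0 of 8 macrophage markers were called lower. In the Schwann cell and neuron list 1 of 5 tested markers was lower, and in the epicardial list 2 of 6. In these lists 0 were called higher. The part of the lower sums in the count of lower channel genes was not tested.

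**Figure D1:**
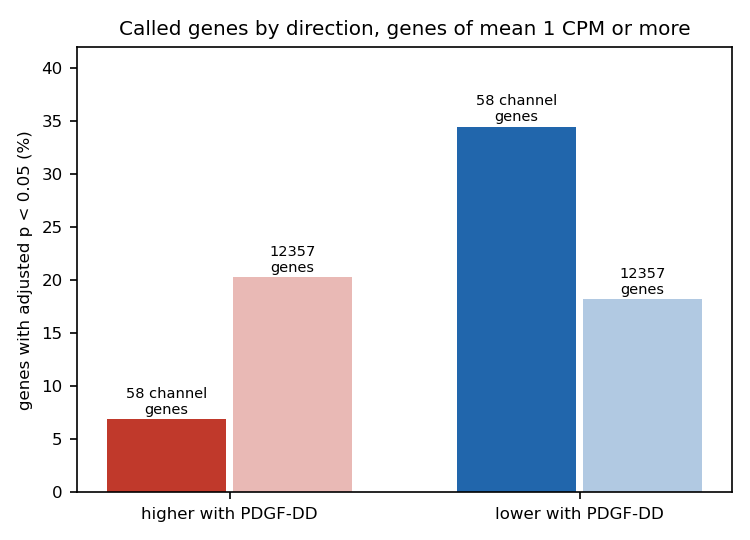
Share of genes with an adjusted p under 0.05 (vertical axis, percent) that were higher or lower with PDGF-DD, for the 58 channel genes (dark bars) and all 12357 tested genes of the same minimum level (pale bars). The channel genes were lower in 34.5% and higher in 6.9% of cases, beside 18.2% and 20.3%.

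Summed over the 58 genes, the level was 1588 ± 30.7 CPM (SD, n = 3) for control libraries and 1401 ± 7.48 CPM (SD, n = 3) for PDGF-DD libraries. The control libraries lay at 1553, 1610 and 1601 CPM and the PDGF-DD libraries at 1407, 1403 and 1392 CPM, without overlap. Kcne4 alone made up 38.2% of this difference, Kcnj15 13.4% and Clcn7 9.09%. Without Kcne4 the sums were 1465 ± 30.8 and 1349 ± 5.71 CPM, again without overlap. The count of lower genes depended on a library: without PDGF-DD replicate 3 it was 12 (20.7% of the members, beside 13.6% of all genes of that level), and with DESeq2 it was 14 (24.1% beside 13.8%). In each of the 13 alternatives tried the share of lower members was above, and that of higher members below, the share among all genes of that level.

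Compared per transcript length, the most abundant channel genes were an accessory potassium channel subunit, a calcium channel beta subunit and a lipid scramblase. Levels here are FPKM, fragments scaled to transcript length and library size, as deposited. In control Kcne4 stood highest of 57 channel genes at 49.7 ± 0.65 FPKM, before Cacnb3 at 41.8 ± 1.83 and Ano6 at 40.1 ± 1.7 FPKM, and the last of these neighbours differed by less than their spread. With PDGF-DD Kcne4 stood at 20.9 ± 1.34 FPKM, the fifth in order, behind Ano6 (39.6 ± 0.46), Cacnb3 (38.7 ± 2.32) and Ano10 (22.9 ± 0.72 FPKM) among others. Pore subunits of voltage-gated channels were far lower. The highest for potassium was Kcnh6 at 1.79 ± 0.27 FPKM in control and for calcium Cacna1c at 2.00 ± 0.04 FPKM. The accessory subunits Kcne4 and Cacnb3 stood above 20 FPKM in both groups, but other accessory subunits ranged widely. In control Kcnab1 stood at 15.9 ± 0.64 FPKM and Kcnab2 at 1.4 ± 0.155 FPKM. For calcium, Cacna2d1 stood at 9.45 ± 0.64 FPKM and Cacnb2 at 0.72 ± 0.106 FPKM. Of the sodium channel pore genes named here, Scn2a stood at 0.483 ± 0.060 FPKM in control and Scn7a, which is grouped with them by family but is not opened by voltage in the usual way, at 2.34 ± 0.11 FPKM.

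**Figure D2:**
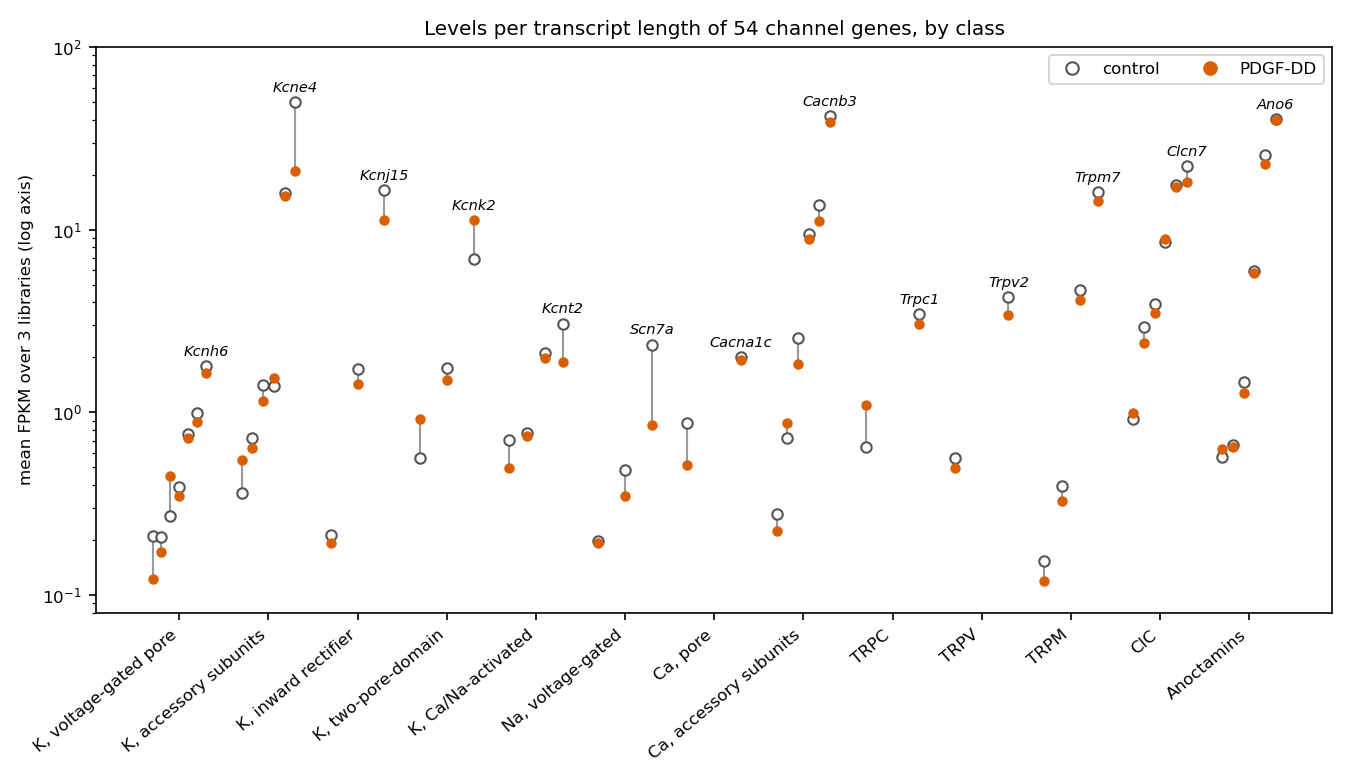
Mean FPKM over 3 libraries (vertical axis, logarithmic) of 54 channel genes at 1 CPM or more, by class, with control as open circles, PDGF-DD as filled circles and a line joining the values of a gene. The highest gene shown of each class is named; Kcne4 stands at 49.7 and 20.9 FPKM and Kcnk2 is higher with PDGF-DD.

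Voltage-gated potassium channel pore subunits were low, and those that changed went both ways. Of 9 at 1 CPM or more, 3 were lower, 1 higher and 5 were not called. Kcna1, a low-threshold channel of axons, stood at 1.79, 1.79 and 2.03 CPM in control against 1.27, 0.98 and 1.03 CPM with PDGF-DD. Its groups did not overlap (log2 fold change -0.78, standard error 0.22, edgeR adjusted p = 0.00667). The call was lost on the log2(TPM + 1) scale (-0.21, limma adjusted p = 0.106, the highest of 0.00522 to 0.106 over the alternatives).

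Kcnq5 encodes a slowly activating channel that carries the M-current of nerve. It stood at 2.26, 1.23 and 1.99 CPM in control against 2.63, 3.36 and 2.56 CPM with PDGF-DD, a rise without overlap in which control replicate 2 was lowest (log2 fold change 0.64, standard error 0.20, edgeR adjusted p = 0.0137). The call was weak: over the alternatives its adjusted p ran from 0.00324 to 0.113, with the call lost with DESeq2 and without control replicate 2 or PDGF-DD replicate 2. The ether-à-go-go family members were not called. Kcnh6 stood at 6.03, 6.33 and 7.61 CPM in control against 5.91, 5.89 and 6.67 CPM with PDGF-DD, with overlapping groups (95% interval of the log2 fold change -0.35 to 0.12), Kcnh2, the rapid delayed rectifier of heart muscle, at 3.72, 3.97 and 3.69 CPM in control against 3.24, 2.85 and 3.78 CPM with PDGF-DD (-0.50 to 0.09), and Kcnh1 at 2.75 ± 0.33 and 2.42 ± 0.37 CPM. Kcnd1, of the transient outward current family, stood at 2.92, 2.5 and 3.17 CPM in control against 2.67, 2.9 and 2.56 CPM with PDGF-DD, with overlapping groups, and was not called.

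Among accessory subunits of voltage-gated potassium channels 1 of 6 was called, and it had the smallest p of all 58 genes. Kcne4 encodes a small membrane-spanning subunit that inhibits several voltage-gated potassium channels. It stood at 123, 124 and 121 CPM in control against 51.0, 54.6 and 47.9 CPM with PDGF-DD. All control libraries lay far above the PDGF-DD libraries (2.40-fold lower, log2 fold change -1.26, standard error 0.05, edgeR adjusted p = 1.33e-16). The cytoplasmic beta subunit Kcnab1 stood at 59.1, 54.8 and 57 CPM in control against 52.5, 53.7 and 55.2 CPM with PDGF-DD and was not called (95% interval -0.18 to 0.02). Kcnab2 stood at 5.66, 4.82 and 5.01 CPM in control against 6, 5.37 and 5.5 CPM with PDGF-DD, with overlapping groups. Kcnab2, Kcnab3 and the calcium-binding partners Kcnip3 and Kcnip4 were not called either, with log2 fold changes between -0.32 and 0.59. Of these, Kcnab3 was called higher without control replicate 3 and Kcnip3 lower without control replicate 1.

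Inward rectifiers, which pass potassium more readily into the cell than out of it, were few. Kcnj15 was the most abundant of 3 and fell. It stood at 75.9, 84.9 and 77.7 CPM in control against 54.4, 57.1 and 52.0 CPM with PDGF-DD, without overlap (1.46-fold lower, log2 fold change -0.54, standard error 0.05, edgeR adjusted p = 4.36e-09). Kcnj4 stood at 3.96, 3.12 and 4.35 CPM in control against 3.05, 3.74 and 2.47 CPM with PDGF-DD. Kcnj2, the classical inward rectifier of heart muscle, stood at 1.23, 1.18 and 1.09 CPM in control against 0.891, 1.12 and 1.12 CPM with PDGF-DD. The groups of both overlapped and neither was called. The pericyte channel gene Kcnj8 had a mean of 0.274 CPM, below the threshold.

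Tandem-pore (K2P) channels, which carry background potassium currents, had 2 of 3 members higher and none lower. Kcnk2 encodes a channel opened by stretch, heat and lipids. It stood at 22.8, 22.9 and 24.3 CPM in control against 37.8, 38.1 and 38.3 CPM with PDGF-DD, with little spread in either group and no overlap (1.63-fold higher, log2 fold change 0.70, standard error 0.06, edgeR adjusted p = 4.69e-10). Kcnk5, an alkaline-activated channel involved in volume control, was lower in level and changed by as much. It stood at 1.84, 1.89 and 1.89 CPM in control against 3.00, 2.85 and 3.26 CPM with PDGF-DD (1.62-fold higher, log2 fold change 0.70, standard error 0.17, edgeR adjusted p = 0.00172). Kcnk6 stood at 6.69, 7.46 and 7.28 CPM in control against 5.68, 5.79 and 6.57 CPM with PDGF-DD, without overlap, and was not called (95% interval -0.47 to -0.03, edgeR adjusted p = 0.0724).

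Of 4 calcium- and sodium-activated potassium channel genes 1 was called. Kcnt2, a sodium-activated channel, stood at 16.1, 17.3 and 16.2 CPM in control against 11.5, 9.95 and 10.2 CPM with PDGF-DD, without overlap (1.57-fold lower, log2 fold change -0.65, standard error 0.08, edgeR adjusted p = 3.9e-07). Kcnmb1, the smooth muscle beta subunit of the large-conductance channel, stood at 2.11 ± 0.15 FPKM in control and 1.98 ± 0.09 FPKM with PDGF-DD. Its counts gave 8.25, 9.07 and 7.89 CPM in control against 7.65, 8.13 and 7.51 CPM with PDGF-DD, with overlapping groups and no call. The pore subunit it serves, Kcnma1, was at 0.063 ± 0.021 and 0.067 ± 0.021 FPKM, resting on 5 to 12 counts per library, and was not tested. Kcnn1 stood at 2.12, 2.46 and 2.08 CPM in control against 2.02, 2.1 and 2.28 CPM with PDGF-DD and was not called. Kcnn4, the intermediate-conductance channel linked to fibroblast growth, was at 1.37 ± 0.33 and 0.951 ± 0.027 CPM without overlap. Kcnn4 was not called (95% interval of the log2 fold change -1.04 to 0.00, edgeR adjusted p = 0.111), except as lower without control replicate 3 and on the log2(TPM + 1) scale.

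**Figure D3:**
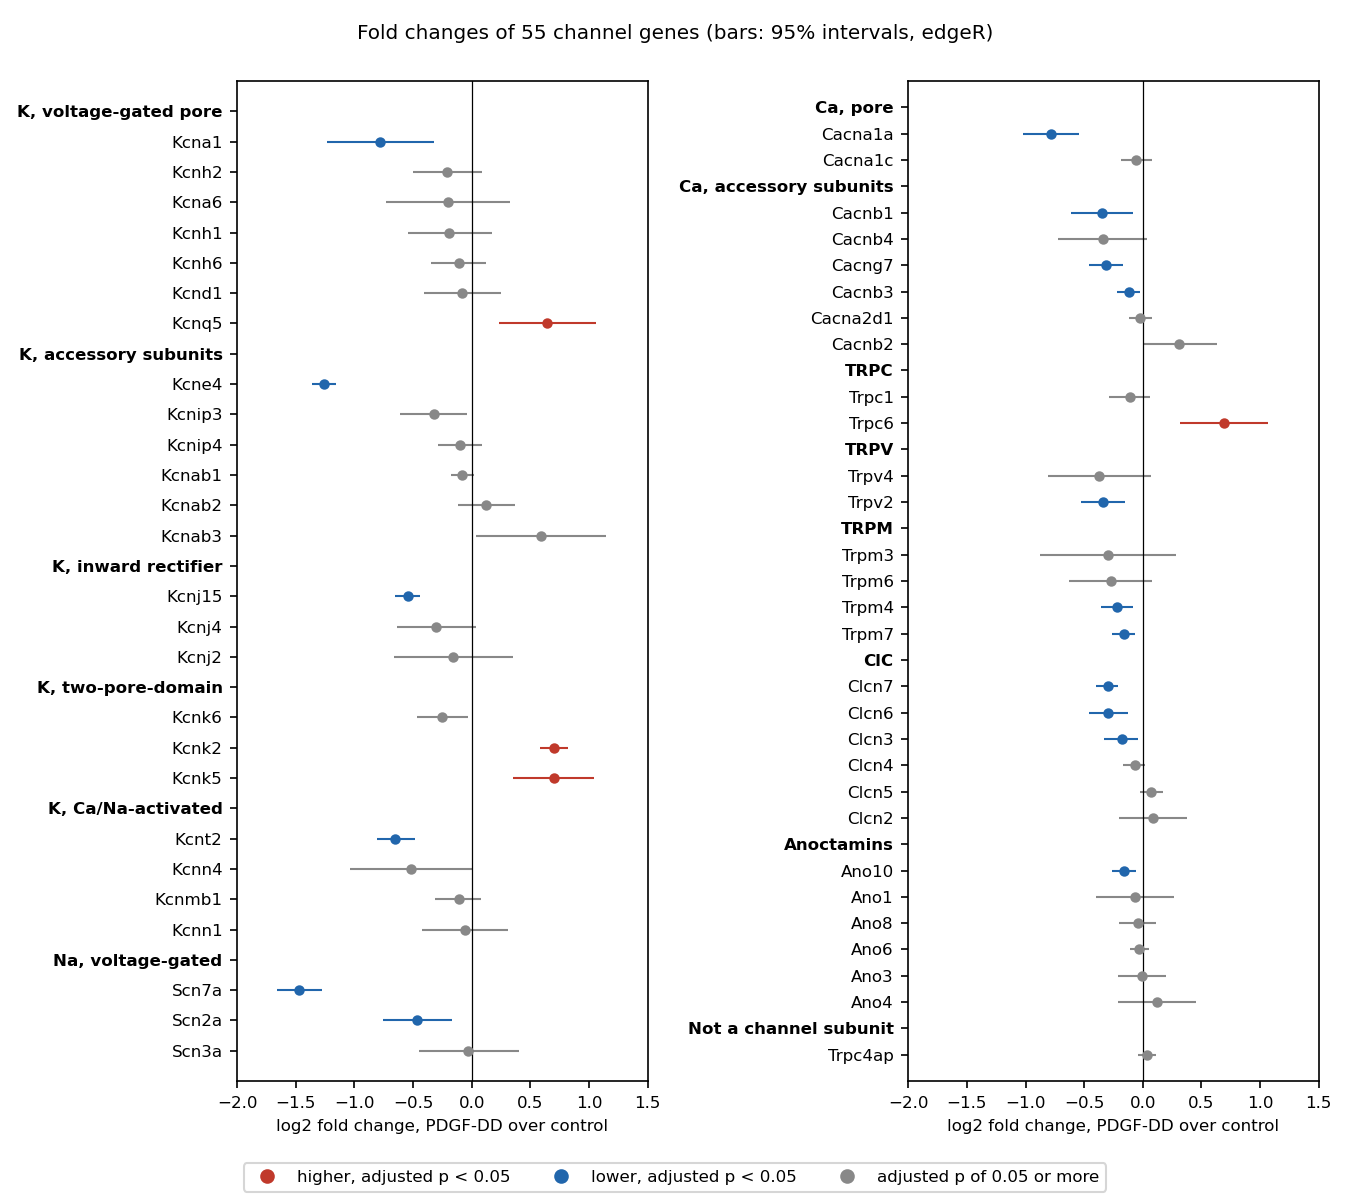
Log2 fold change of PDGF-DD over control (horizontal axis, with 95% intervals from edgeR) of 55 of the 58 genes, by class, coloured by call. The lower genes are spread over most classes, from Scn7a at -1.47 to Cacnb3 at -0.12, and the 4 higher genes are Kcnk2, Kcnk5, Trpc6 and Kcnq5.

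Of 4 sodium channel genes at 1 CPM or more 3 were lower and the other was not called. Among all genes of that level 18.2% were lower, and whether this class differs was not tested. Scn7a encodes a channel that senses extracellular sodium rather than voltage. It stood at 16.6, 16.8 and 18.1 CPM in control against 6.99, 6.03 and 5.55 CPM with PDGF-DD, the largest fall of the 58 genes (2.77-fold lower, log2 fold change -1.47, standard error 0.09, edgeR adjusted p = 2.5e-12). Its groups did not overlap. The neuronal pore gene Scn2a was lower, at 4.71, 4.34 and 3.73 CPM in control against 3.38, 2.9 and 2.98 CPM with PDGF-DD (log2 fold change -0.47, edgeR adjusted p = 0.0119, and 0.00687 to 0.0845 over the alternatives, with the call lost in 5 of them). Scn3a was at 1.75 ± 0.05 and 1.71 ± 0.35 CPM. Scn7a is also expressed by Schwann cells, of which the markers Sox10 and Erbb3 had log2 fold changes of -0.13 and -0.09 and were not called.

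The 250 bases before the start of 2 genes that fell and 2 that rose are shown, chosen as the largest falls and the rises among members with 1 start in the table; sequences are from RefSeq, build GRCm38.p6, written 5′ to 3′ along the gene, and capitals mark matches to the motifs searched.
Kcne4 (GRCm38.p6, chr1:78816661-78816910, + strand): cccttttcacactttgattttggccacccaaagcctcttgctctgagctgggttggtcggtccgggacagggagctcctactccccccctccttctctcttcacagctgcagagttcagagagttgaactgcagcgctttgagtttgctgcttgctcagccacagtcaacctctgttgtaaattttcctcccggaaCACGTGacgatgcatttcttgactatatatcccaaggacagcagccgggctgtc
Scn7a (GRCm38.p6, chr2:66784911-66785160, - strand): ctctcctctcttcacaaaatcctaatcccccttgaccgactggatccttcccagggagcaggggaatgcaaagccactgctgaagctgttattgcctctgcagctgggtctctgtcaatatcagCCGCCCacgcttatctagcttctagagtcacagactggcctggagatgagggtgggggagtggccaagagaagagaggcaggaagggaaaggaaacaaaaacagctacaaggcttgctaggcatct
Kcnk5 (GRCm38.p6, chr14:20181783-20182032, - strand): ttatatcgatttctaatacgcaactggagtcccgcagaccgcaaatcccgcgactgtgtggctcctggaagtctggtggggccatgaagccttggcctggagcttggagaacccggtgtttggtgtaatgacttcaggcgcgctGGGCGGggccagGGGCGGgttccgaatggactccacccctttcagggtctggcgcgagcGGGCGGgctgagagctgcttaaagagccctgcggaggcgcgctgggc
Trpc6 (GRCm38.p6, chr9:8543892-8544141, + strand): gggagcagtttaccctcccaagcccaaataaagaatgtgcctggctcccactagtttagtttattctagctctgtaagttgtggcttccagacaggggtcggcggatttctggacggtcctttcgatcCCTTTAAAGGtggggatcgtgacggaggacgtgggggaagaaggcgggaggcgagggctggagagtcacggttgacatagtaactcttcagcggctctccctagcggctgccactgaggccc
Both strands were searched for the AP-1 site spelled TGANTCA, the E-box spelled CACGTG, the GC box spelled GGGCGG, the CCAAT box of that spelling, the TATA box spelled TATAAA and the SRF CArG box. No match overlapped that of another motif in these 4 windows. Kcne4 held an E-box 54 to 49 bases before the start, a motif found in 6.02% of all 32851 windows of this length. Scn7a held 1 GC box on the opposite strand and Kcnk5 held 3 on the strand of the gene, a motif found in 32.7% of all windows. Trpc6 held an SRF CArG box 122 to 113 bases before the start, found in 1.47% of all windows. Of the 58 genes 47 had a window in the table, 75 windows in all, of which 13.3% held an E-box, 40% a GC box and 1.33% a CArG box. A match of letters is a description and does not show that a factor binds there.

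Voltage-gated calcium channel genes were lower or not called. Cacna1c, the L-type pore subunit of heart and smooth muscle, was the most abundant pore subunit and stood at 23.2, 25.5 and 24.2 CPM in control against 24.2, 22.8 and 23.2 CPM with PDGF-DD, with overlapping groups (95% interval -0.19 to 0.08). Cacna1a, the P/Q-type subunit known from neurons, stood at 6.83, 7.18 and 7.42 CPM in control against 4.50, 3.88 and 4.10 CPM with PDGF-DD. Its groups did not overlap (1.72-fold lower, log2 fold change -0.78, standard error 0.11, edgeR adjusted p = 5.63e-06). The T-type gene Cacna1h lay below the threshold at 0.755 ± 0.048 and 0.343 ± 0.097 CPM, on 15 to 17 and 5 to 9 counts, and was the called member among 15 tested genes below 1 CPM (log2 fold change -1.13, standard error 0.36, edgeR adjusted p = 0.0143).

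Of 6 accessory calcium channel genes 3 were lower. Cacng7, a gamma subunit that also serves glutamate receptors, stood at 30.7, 32.7 and 32.7 CPM in control against 28.9, 25.1 and 23.3 CPM with PDGF-DD, without overlap (log2 fold change -0.31, standard error 0.07, edgeR adjusted p = 0.000781). The cytoplasmic beta subunits Cacnb3 and Cacnb1 were lower by little: Cacnb3 stood at 107, 104 and 113 CPM in control against 101, 104 and 92.2 CPM with PDGF-DD with overlapping groups, and Cacnb1 at 5.59 ± 0.39 and 4.39 ± 0.71 CPM. Both calls were marginal, with edgeR adjusted p = 0.0457 for Cacnb3 (0.021 to 0.363 over the alternatives) and 0.0376 for Cacnb1 (0.00346 to 0.226). Cacnb3 lost its call in 7 of 13 alternatives, including the replicate block, and Cacnb1 in 5. Cacna2d1, the alpha2delta subunit bound by gabapentin, was the steadiest in control at 48.6, 48.5 and 48.5 CPM and stood at 48.5, 45.7 and 49.7 CPM with PDGF-DD (95% interval -0.12 to 0.08). Cacnb2 (3.15 ± 0.55 and 3.91 ± 0.47 CPM) was called higher without control replicate 1 but not otherwise, and Cacnb4 was not called.

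TRP channels, cation channels opened by lipids, stretch, heat or emptied calcium stores, numbered 8 above the threshold, of which 3 were lower and 1 higher. Trpc6, opened by diacylglycerol, was the member that rose. It stood at 2.17, 2.50 and 1.51 CPM in control against 3.00, 3.78 and 3.22 CPM with PDGF-DD, without overlap and on 32 to 81 counts per library (1.62-fold higher, log2 fold change 0.69, standard error 0.18, edgeR adjusted p = 0.00354). Its relative Trpc1 stood at 13.9, 14.1 and 12.7 CPM in control against 11.2, 12.9 and 13.5 CPM with PDGF-DD, with overlapping groups, and was not called (95% interval -0.29 to 0.06).

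The most abundant TRP gene was Trpm7, a magnesium- and calcium-permeable channel joined to a kinase, at 16.0 ± 0.92 FPKM in control and 14.4 ± 0.72 FPKM with PDGF-DD. Its counts gave 109, 122 and 111 CPM in control against 103, 96.3 and 106 CPM with PDGF-DD, lower without overlap by little (log2 fold change -0.16, edgeR adjusted p = 0.00754, and 0.00153 to 0.0839 over the alternatives). That call was lost without control replicate 2 or PDGF-DD replicate 2 and on the log2(TPM + 1) scale. Trpm4, a calcium-activated channel for monovalent cations, was lower, at 18.8, 20.4 and 19.9 CPM in control against 16.7, 17.4 and 16.7 CPM with PDGF-DD (log2 fold change -0.22, edgeR adjusted p = 0.0139, and 0.00779 to 0.071 over the alternatives, lost in 5). Trpv2, a channel of stretch and of immune cells, was lower, at 12.2, 11.3 and 11.8 CPM in control against 8.26, 10.5 and 9.18 CPM with PDGF-DD (log2 fold change -0.34, edgeR adjusted p = 0.00496, and 0.0579 without PDGF-DD replicate 1, the highest of 0.00146 to 0.0579). Trpv4, a channel opened by swelling and linked to stretch sensing in fibroblasts, stood at 1.89, 1.75 and 1.75 CPM in control against 1.13, 1.68 and 1.35 CPM with PDGF-DD and was not called. The magnesium channel gene Trpm6 stood at 2.45, 2.6 and 2.69 CPM in control against 2.25, 1.82 and 2.33 CPM with PDGF-DD. It was not called, nor was Trpm3 at 1.12 ± 0.21 and 0.904 ± 0.307 CPM.

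**Figure D4:**
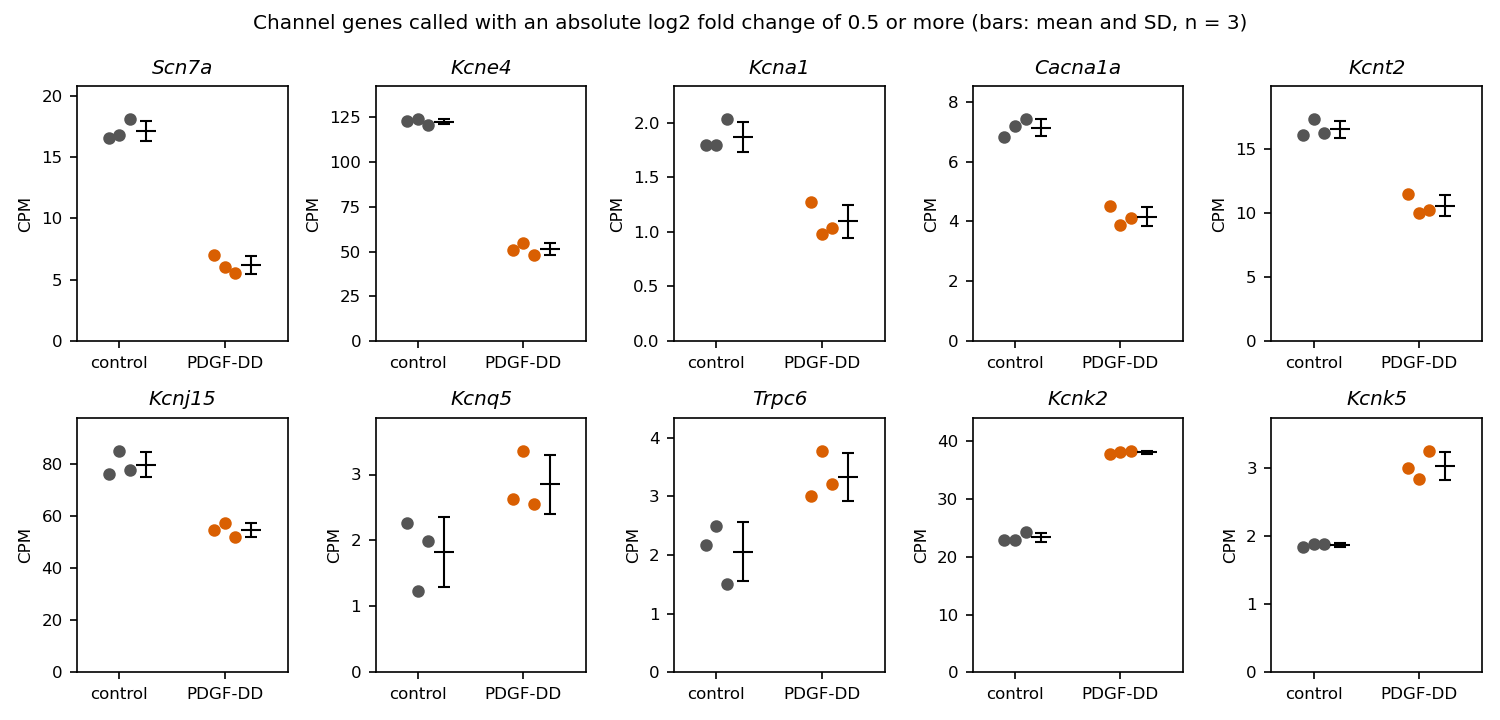
CPM of each library (vertical axis, from 0) for 10 of the 12 channel genes called with an absolute log2 fold change of 0.5 or more, ordered from the largest fall to the largest rise, with mean and SD of 3 libraries as bars. In each panel the control and PDGF-DD points do not overlap, from Scn7a at 16.6 to 18.1 against 5.55 to 6.99 CPM to Kcnk2 at 22.8 to 24.3 against 37.8 to 38.3 CPM.

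In the ClC family 3 of 6 genes were lower, all of them coding for proteins of endosomes and lysosomes. Clcn7, the chloride-proton exchanger of lysosomes, stood at 86.3, 91.9 and 92.4 CPM in control against 69.9, 74.9 and 74.7 CPM with PDGF-DD, without overlap (1.23-fold lower, log2 fold change -0.30, edgeR adjusted p = 9.19e-06). Clcn6, of late endosomes, was lower at 15.1 ± 0.71 and 12.3 ± 1.04 CPM (log2 fold change -0.30, edgeR adjusted p = 0.00456, and 0.00196 to 0.0601 over the alternatives, lost without PDGF-DD replicate 3). Clcn3 was lower at 20.6 ± 0.96 and 18.1 ± 1.09 CPM, a marginal call (log2 fold change -0.18, edgeR adjusted p = 0.0408, and 0.0234 to 0.177 over the alternatives) that was lost in 8 of 13 alternatives, including the replicate block. The other endosomal exchangers were not called: Clcn4 stood at 73, 76.8 and 74 CPM in control against 72.5, 68.9 and 71.6 CPM with PDGF-DD (95% interval -0.17 to 0.02). Clcn5 stood at 70.9, 74.7 and 75.4 CPM in control against 78.8, 73.9 and 79.4 CPM with PDGF-DD (-0.02 to 0.17). Clcn2, a chloride channel of the cell surface, was at 3.54 ± 0.42 and 3.77 ± 0.04 CPM.

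Among anoctamins 1 of 6 was called. Ano6, a calcium-activated lipid scramblase and channel, stood at 212, 231 and 229 CPM in control against 220, 217 and 221 CPM with PDGF-DD, with overlapping groups (95% interval -0.11 to 0.05). Ano10, of the endoplasmic reticulum, was lower, at 64.4, 67.8 and 66.7 CPM in control against 60.5, 60.3 and 57.1 CPM with PDGF-DD (log2 fold change -0.16, standard error 0.05, edgeR adjusted p = 0.00804), a call lost without PDGF-DD replicate 3 (0.0794, the highest of 0.00312 to 0.0794 over the alternatives). Ano8 stood at 23, 19.5 and 23.7 CPM in control against 20.1, 22.1 and 22 CPM with PDGF-DD, with overlapping groups. Ano8, Ano3, Ano4 and Ano1, the calcium-activated chloride channel of epithelia and smooth muscle, had log2 fold changes between -0.07 and 0.12 and were not called. Trpc4ap stood at 151, 153 and 152 CPM in control against 156, 156 and 156 CPM with PDGF-DD and was not called (log2 fold change 0.04, edgeR adjusted p = 0.475).

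The threshold of 1 CPM fell among genes of similar level. Just inside it were Trpm3 at a mean of 1.01 CPM and Kcna6 and Kcnj2 at 1.10 CPM, and just outside were Cacna1g, a T-type calcium channel, at 0.995, Kcng3 at 0.814 and Kcnmb4 at 0.704 CPM. Of the 166 genes 91 are potassium channel genes, of which 25 lay above it. Above it were also 4 of 13 sodium channel genes, 8 of 23 calcium channel genes, 8 of 19 TRP genes, 6 of 9 ClC genes and 6 of 9 anoctamins. Exons of 22 of the 58 genes overlapped exons of another gene in GENCODE M21, nearly always on the opposite strand, and 7 of these were called, among them Kcnq5, Kcnj15, Kcnk2, Kcnt2, Cacna1a and Cacnb1. No source used here states the strand setting. Reads of such partners could be shared, which makes those values uncertain.

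Other genes of ion transport were grouped in 6 lists. Of tested genes, 55.6% were called in either direction for calcium extrusion and mitochondrial uptake. The share was 50% both for store-operated entry and calcium stores and for the sodium pump. For other chloride genes, partners of the channel families and other cation channels it was 31.2%, 30% and 28.6%. Of all tested genes 36.5% were called, and whether the lists differ from that share was not tested. Of 9 tested genes of calcium extrusion and mitochondrial uptake 4 were lower and 1 higher. The sodium-calcium exchanger gene Slc8a1 was lower, at 33.9 ± 0.39 CPM in control against 16.4 ± 0.62 CPM with PDGF-DD (edgeR adjusted p = 1.43e-12, log2 fold change -1.05). The plasma membrane calcium pump gene Atp2b4 was lower too, at 14.1 ± 1.21 and 6.2 ± 0.66 CPM (edgeR adjusted p = 4.8e-10, log2 fold change -1.18). Micu2, a regulator of mitochondrial uptake, was not called.

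Of 12 tested genes of store-operated entry and calcium stores 4 were lower and 2 higher, with a median log2 fold change of -0.12. Atp2a2, the calcium pump of the endoplasmic reticulum, rose from 391 ± 5.6 to 423 ± 3.44 CPM and Saraf, a brake on store-operated entry, fell from 161 ± 1.49 to 149 ± 5.47 CPM (edgeR adjusted p = 0.0172 and 0.0328). The ryanodine receptor gene Ryr2, a marker of heart muscle in the list given above, was lower on fewer counts, at 0.865 ± 0.056 and 0.499 ± 0.071 CPM (edgeR adjusted p = 0.0485). In the sodium pump list 2 of 10 were higher and 3 lower. The beta subunit Atp1b3 rose from 253 ± 8.75 to 280 ± 6 CPM (edgeR adjusted p = 0.00474).

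Of 21 tested other cation channel genes 5 were lower and 1 higher, and the stretch-activated channel gene Piezo1, the highest of them by FPKM, at 425 ± 19.5 and 438 ± 6.46 CPM, was not called, nor was Pkd2. Of 16 other chloride channel and transporter genes 4 were lower and 1 higher. The highest of these by FPKM, Clic1, was higher at 209 ± 10.6 and 268 ± 9.14 CPM (edgeR adjusted p = 1.56e-07), and the next, Clic4, stood at 632 ± 14.9 and 632 ± 3.16 CPM. Ttyh1 was lower on 7 to 28 counts, at 0.912 ± 0.365 and 0.483 ± 0.164 CPM with overlapping groups. That call was marginal (log2 fold change -0.91, edgeR adjusted p = 0.0454). Of 10 tested partners of the channel families 3 were lower, among them Ostm1 and Fgf11. Ostm1, the beta subunit of the Clcn7 exchanger, stood at 62 ± 3.46 and 56.5 ± 2.01 CPM (edgeR adjusted p = 0.0382). Fgf11 stood at 1.21 ± 0.50 and 0.655 ± 0.216 CPM with overlapping groups, a marginal call (log2 fold change -0.88, edgeR adjusted p = 0.0347). Rem1, an inhibitor of calcium channels, was not called.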

How the data were processed

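Messenger RNA of 6 libraries was sequenced as DNA nanoballs after oligo(dT) capture and random-hexamer priming, per the labels' protocols. Per the submitters' processing notes, which give no roles, HISAT2 2.0.4, Bowtie2 2.2.5, RSEM 1.2.12, DESeq2 1.4.5 and build mm9 were used. Of read filters, annotation and strand the sources used here say nothing. The authors deposited estimated counts per gene, not normalized, of which 31.9% to 32.7% per library are not whole, with FPKM (scaled by the authors to length and depth) and TPM (scaled by the authors to a common sum), per the file headers.

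Estimated counts were rounded, filtered with filterByExpr (13270 genes left), scaled with TMM factors (0.995 to 1.01) and compared with edgeR 4.0.16 in R 4.3.3 (quasi-likelihood F test, robust, two-sided, Benjamini-Hochberg adjustment over all tested genes, threshold 0.05). The SE is the fold change divided by the square root of F. Group values are means ± SD of 3 libraries. With 3 against 3 libraries an exact permutation test cannot go below 0.1, so none is given. The common biological coefficient of variation was 3.96%. No test was run over the list.

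Members, classes, gene lists and the rule for named genes were chosen with earlier results of these data known. The rule gives per-library values to called members with an absolute log2 fold change of 0.5 or more and to the 3 highest of each class by FPKM; other members are given by group means or ranges. In the other lists it names called genes of that size and the 2 highest by FPKM; Kcnma1, Kcnj8, Cacna1h, Trpm8 and the markers named were chosen after their values were seen. Some genes that the rule names, 3 of the 58 among them, are not reported here by name; they are counted in the totals and left out of the plots of single genes. Alternatives were other scalings (RLE, upper quartile, total count), no filter, DESeq2 1.42.0, limma 3.58.1 on log2(TPM + 1), the replicate number as a block, and each library left out. On simulated data of this comparison with 13160 tested genes, 76% of genes changed 1.3-fold (38 of 50) and 100% of those changed 2-fold (50 of 50) were recovered, 20% of those changed 1.15-fold (10 of 50), and 20 of 12960 unchanged genes were called; far fewer genes were changed there than in the data. Promoters were read from a RefSeq table of GRCm38.p6, which is not the files' build, and exon overlaps from GENCODE M21.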

Additional observations from a re-analysis of the deposited data

How the results depend on the processing

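Of the 24 called channel genes 12 kept their call in all 13 alternatives (among them Kcne4, Scn7a, Kcnt2, Kcnj15, Cacna1a, Cacng7, Clcn7, Kcnk2, Kcnk5 and Trpc6), 12 lost it in at least 1, and 4 of 34 others gained one; no direction of a call was reversed. Leaving out 1 library gave 12 to 20 lower and 3 to 5 higher channel genes (20 and 4 with all libraries; 12 without PDGF-DD replicate 3), and 1729 to 2374 lower and 2147 to 2643 higher genes overall. On the log2(TPM + 1) scale low genes have smaller fold changes by construction, as with Cacna1a (-0.48 against -0.78). The replicate block gave 18 lower and 4 higher channel genes; the calls lost were Cacnb3 and Clcn3. Deviations of same-numbered libraries from their group means had correlations of -0.07, -0.09 and -0.03, so the numbers are not taken to pair the libraries.

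Counts of classes rest on few genes. DESeq2 called 0 voltage-gated potassium pore subunits higher (1 in edgeR), 1 accessory calcium channel gene lower (3), 1 TRPM gene lower (2), 2 store-operated entry genes lower (4), 0 calcium extrusion genes higher (1) and 1 channel partner lower (3). On log2(TPM + 1) the numbers were 2 lower calcium- and sodium-activated potassium channel genes (1), 0 lower TRPM genes, 1 higher (2) and 2 lower store-operated entry genes, 0 higher (1) and 3 lower (5) other cation channels and 2 lower other chloride genes (4). Total count scaling gave 2 lower store-operated entry genes, upper-quartile scaling 0 higher calcium extrusion genes, and the replicate block 1 higher and 2 lower store-operated entry genes and 0 higher calcium extrusion genes. With 1 library left out, lower genes numbered 1 to 2 for accessory potassium subunits and for calcium- and sodium-activated channels, 1 to 3 for accessory calcium channel genes and the ClC family, 0 to 1 for TRPV and anoctamins, 0 to 2 for TRPM, 2 to 4 for store-operated entry, 3 to 6 for other cation channels and 1 to 2 for channel partners. Higher genes numbered 0 to 1 for voltage-gated potassium pore subunits, accessory potassium and accessory calcium subunits, calcium extrusion and channel partners, and 1 to 2 for other chloride genes. The cause of these changes was not tested. Low counts near 1 CPM limit which changes could be called.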
